A study of Mus musculus with 20 samples.

Results

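The histone deacetylase family was followed at the transcript level in tumors that the mouse hepatoma line HEPA1-6 formed under the skin of C57/BL6 mice within 4 weeks. All 10 genes sought by symbol (Hdac1 to Hdac8, Hdac10 and Hdac11) were found among the 14633 genes of the deposited poly-A RNA-seq table, and all 10 passed the filter on low values, each with at least 1 FPKM in all 19 libraries. FPKM are fragments normalized to gene length and library total. Hdac9 was not analysed here. The groups were tumors given control antibody plus GSK343 (n = 5 libraries), control antibody alone (n = 4), an antibody against the chemokine CXCL10 plus GSK343 (n = 5), and the anti-CXCL10 antibody alone (n = 5). Every tumor therefore received an antibody, and GSK343, an inhibitor of the Polycomb methyltransferase EZH2, was the added agent. The labels give neither dose, age of the animals nor which tumors came from separate animals, so the tests see only how far these libraries scatter, and some of that scatter could be technical. The design text states 3 replicates per condition and the labels number 5. The control antibody group lacks its replicate 4, which was not analysed here.

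Histone deacetylases remove acetyl groups from lysines of histones and of many other proteins. The class I enzymes (Hdac1, Hdac2, Hdac3 and Hdac8) are mainly nuclear, and most act inside corepressor complexes. Class IIa enzymes (Hdac4, Hdac5 and Hdac7) are signal-regulated repressors of MEF2 transcription factors, class IIb (Hdac6 and Hdac10) act largely in the cytoplasm, and Hdac11 is the sole class IV enzyme. EZH2 methylates a histone lysine that can carry an acetyl group instead, so deacetylases and Polycomb are often studied together.

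The tumors carried hepatoma transcripts in every library: Alb ranged over the 19 libraries from 1820.0 to 4400.0 FPKM and Afp from 1430.0 to 3500.0 FPKM. Other cell types differed between groups. The skeletal muscle score, the mean log2(FPKM + 1) of 17 tested marker genes of 18 listed, was 1.79 to 6.61 with control antibody plus GSK343 and 1.17 to 2.39 with control antibody. It was 0.95 to 2.57 with anti-CXCL10 plus GSK343 and 0.55 to 3.86 with anti-CXCL10. T cell scores (20 of 20 markers tested) were 2.73 to 4.07 with control antibody plus GSK343 and 2.1 to 2.56 with control antibody. Macrophage scores (14 of 15) were 5.32 to 5.63 with control antibody plus GSK343 and 4.21 to 5.02 with control antibody. Hepatocyte and hepatoma scores (18 of 18) were 4.45 to 5.19 with control antibody plus GSK343 and 4.98 to 6.22 with control antibody. Thus muscle, T cell and macrophage scores leaned higher, and hepatoma scores lower, in the group given control antibody plus GSK343. In the same pair of groups the endothelial (12 of 15), fibroblast (14 of 14) and keratinocyte (9 of 12) scores overlapped, as did the muscle and hepatoma scores. The T cell and macrophage scores did not overlap. Of 28 exact two-sided permutation tests of marker scores, 0 passed after adjustment (smallest adjusted p = 0.111, smallest unadjusted p = 0.00794). These tests cannot give a p below 0.00794 for 5 against 5 libraries, or below 0.0159 for 5 against 4. Even scores without overlap could therefore hardly pass, and the missed threshold does not decide whether the scores differed. In whole tumors, fewer cells of a type and less RNA per cell cannot be told apart. The sequencing sheet numbers in the sample descriptions start again with the anti-CXCL10 samples, so the antibody and that numbering cannot be told apart. The GSK343 comparisons lie within one numbering. Within each numbering, however, all libraries without GSK343 come before all those with it. The drug and the place in the numbering therefore cannot be told apart either.

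The family fell into a high and a low tier. Hdac1 had the highest mean, 48.9 FPKM over all 19 libraries, and Hdac2, its close homolog and partner in the NuRD, Sin3 and CoREST complexes, had 47.6 FPKM. Hdac1 exceeded Hdac2 in 13 of 19 libraries, with ratios of 0.773 to 1.22, so their order was within the spread. Hdac7, a class IIa enzyme known from thymocytes and endothelium, averaged 30.5 FPKM. Hdac3, the catalytic subunit of the NCoR corepressor complex, averaged 27.3 FPKM, and Hdac7 was above it in 12 of 19 libraries. Hdac6, the tubulin deacetylase, had 18.0 FPKM and Hdac5 14.1 FPKM, with Hdac6 above Hdac5 in 16 of 19 libraries.

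The low tier began with Hdac10 at a mean of 4.31 FPKM. Hdac5 exceeded Hdac10 in all 19 libraries, by a factor of 1.92 to 5.54, and the ranges of the 2 genes did not overlap. Hdac11 (3.83 FPKM), Hdac4 (3.69 FPKM) and the cohesin deacetylase Hdac8 (2.60 FPKM) followed. Their order was not firm, since Hdac10 was above Hdac11 in 12 libraries, Hdac11 above Hdac4 in only 7, and Hdac4 above Hdac8 in 15. Among all tested genes the mean of Hdac1 lay at percentile 86.8, that of Hdac10 at 29.6 and that of Hdac8 at 19.1.

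**Figure D1:**
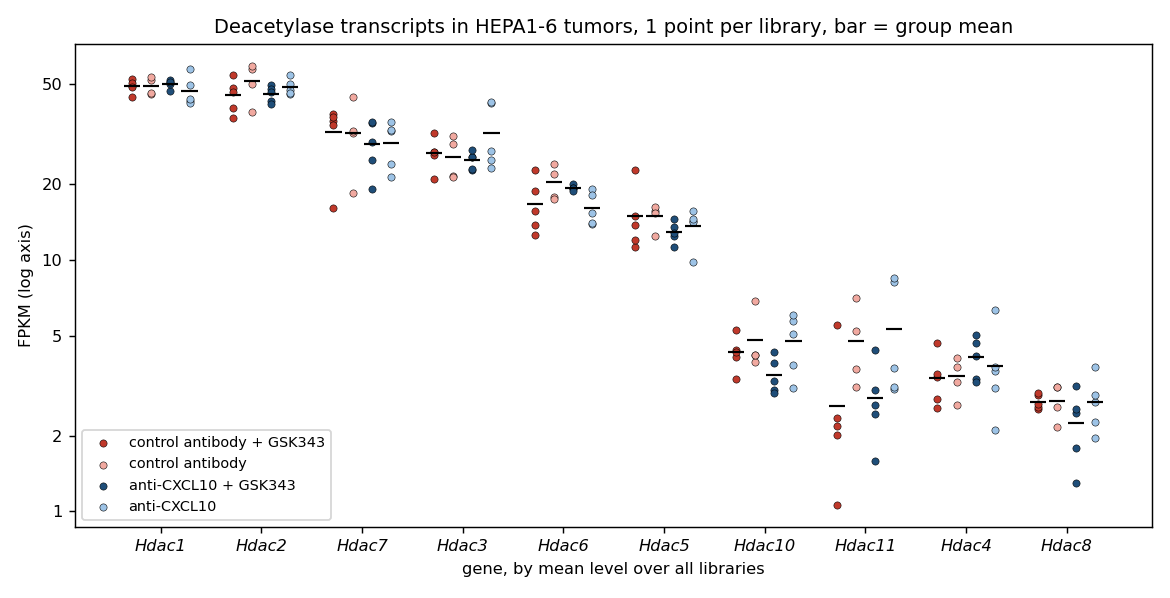
FPKM of the 10 deacetylase genes on a log axis, 1 point per library and a bar at each group mean (n = 5, 4, 5 and 5 libraries), with genes in order of their mean. The 6 genes from Hdac1 to Hdac5 stay at 9.77 FPKM or above and the 4 from Hdac10 to Hdac8 at 8.44 FPKM or below, in every library.

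The summed level of the 10 genes was 198.0 ± 19 FPKM with control antibody plus GSK343 and 209.0 ± 18.1 FPKM with control antibody (SD). With the anti-CXCL10 antibody it was 194.0 ± 8.55 FPKM with GSK343 and 203.0 ± 15.7 FPKM without. The 4 class I genes made up 62.7% ± 5.48 of that sum with control antibody plus GSK343 and 61.6% ± 2.96 with control antibody. Their share was 63.3% ± 2.68 with anti-CXCL10 plus GSK343 and 64.2% ± 3.33 with anti-CXCL10. These shares differed between groups by less than the spread between libraries of a group. Spread within groups differed between members. Hdac1 had an SD of 0.12 on the log2(FPKM + 1) scale, lower than that of most tested genes (percentile 9.7), and Hdac11 had 0.52 (percentile 92.6).

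The effect of GSK343 under control antibody was tested with limma on log2(FPKM + 1) across 14385 genes, with Benjamini-Hochberg adjustment over all of them. None of the 10 members passed at an adjusted p under 0.05, against 5.47% of all tested genes. Among 10 genes, a count of 0 does not set the family apart from a share of this size, here or in the other comparisons. An unadjusted p under 0.05 was found for 1 member, Hdac11, against 18.9% of tested genes. The smallest adjusted p of a member was 0.232. The median difference of the members was -0.03, and that of all genes was -0.03. No member had groups without overlap, against 7.58% of tested genes. For 9 of the 10 members the 95% interval of the difference lay within 1 log2 unit either way, and for 7 within 0.5.

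Hdac1 showed how narrow these limits could be. Hdac1 (ENSMUSG00000028800, GRCm38 chromosome 4, 129516104 to 129542713, minus strand) had 52.5, 49.0, 44.5, 50.4 and 48.9 FPKM with control antibody plus GSK343 and 51.9, 53.2, 45.6 and 46.1 FPKM with control antibody. The groups overlapped throughout, and the difference was -0.00 ± 0.09 (SE; 95% interval -0.18 to 0.18, limma adjusted p = 0.995). Of the 20 genes beside the members, 2 passed, Lck and Marcks, against 5.47% of all tested genes. The nearest to Hdac1, Marcksl1 at 118 bases, did not (0.56 ± 0.18, limma adjusted p = 0.0943). Lck, the T cell receptor kinase, lies 5630 bases from Hdac1 on the same strand and had 14.9 ± 3.54 FPKM with control antibody plus GSK343 and 6.24 ± 2.64 FPKM with control antibody (SD), a rise of 1.19 ± 0.21 (limma adjusted p = 0.00473). Lck is also 1 of the T cell markers, and it was named after its values were seen, as were Marcks and Marcksl1. The Lck call was lost in the fit of the compared groups alone (1.19, adjusted p = 0.0593). It was also lost with the muscle score as a covariate (1.12, 0.0873) and without the 3 libraries highest in muscle markers (1.13, 0.1). Marcks differed by 0.40 ± 0.08 (limma adjusted p = 0.00539). In those 3 fits its call was lost too, at 0.40 (adjusted p = 0.0667), 0.39 (0.0935) and 0.44 (0.0804). Hdac2 averaged 45.2 ± 7.04 FPKM with control antibody plus GSK343 and 51.4 ± 9.18 FPKM with control antibody, a difference of -0.18 ± 0.12 (adjusted p = 0.475). Hdac3 (0.05 ± 0.17), Hdac4 (-0.02 ± 0.20), Hdac5 (-0.03 ± 0.16) and Hdac8 (-0.00 ± 0.16) had differences smaller than their standard errors. For Hdac7 the difference was 0.02 ± 0.27 with a wide interval, -0.54 to 0.58. Hdac7 overlaps Slc48a1 in the deposited coordinates, and the sources used here do not say how fragments of overlapping genes were assigned.

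Under anti-CXCL10 antibody, 0 members and 0% of tested genes passed limma's test for GSK343 (418 genes and 2 members, Hdac10 and Hdac11, at an unadjusted p under 0.05, which is 2.91% of tested genes). The members' differences ran from -0.66 for Hdac11 to 0.26 for Hdac6, with a median of -0.08 against 0.01 for all genes. Groups did not overlap for 0 members and for 0.396% of tested genes. Averaged over the antibodies, the effect of GSK343 passed for 0 members and for 0.938% of tested genes (0.813% higher and 0.125% lower), and only Hdac11 had an unadjusted p under 0.05 (12.3% of tested genes). In this average, 9 of the 10 intervals lay within 0.5 log2 units. These intervals, and not the missed threshold, give the differences that the data allow on the log2(FPKM + 1) scale. That scale understates changes of low genes, so for Hdac10, Hdac11, Hdac4 and Hdac8 the intervals are not limits on fold changes.

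**Figure D2:**
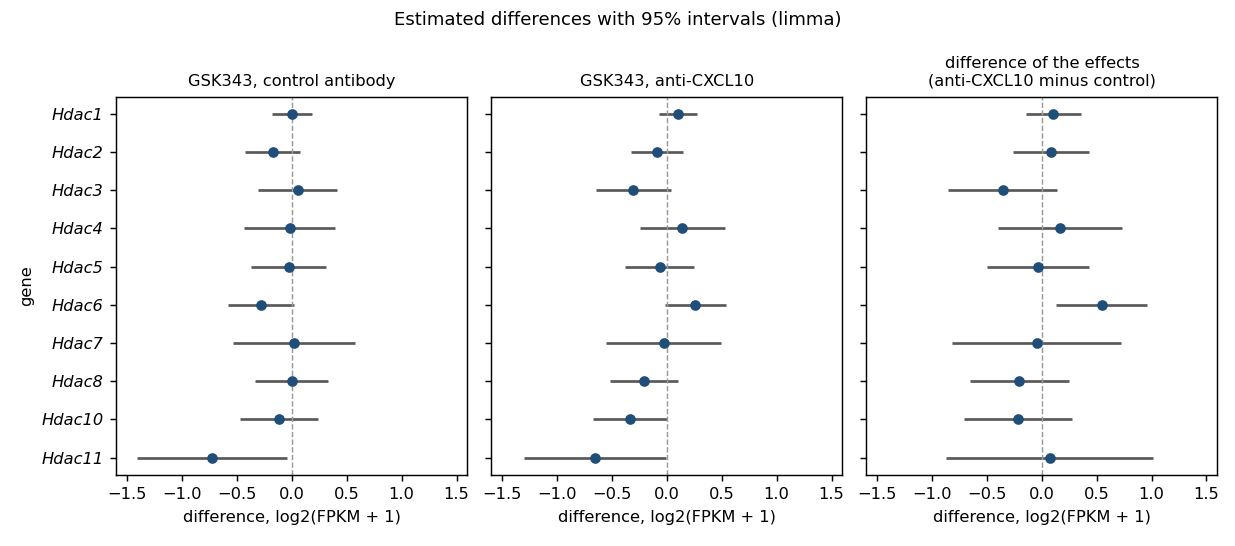
Estimated differences on the log2(FPKM + 1) scale (points) with 95% intervals (lines) from limma for the 10 members, for GSK343 under control antibody, GSK343 under anti-CXCL10, and the difference of the effects. The interval of Hdac1 is the narrowest and that of Hdac11 the widest, and Hdac11 lies at -0.73 and -0.66 in the first and second panels.

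Hdac11 was the member with the largest difference. Hdac11 (ENSMUSG00000034245, GRCm38 chromosome 6, 91156665 to 91174692, plus strand) encodes an enzyme that removes fatty acyl groups from lysines more readily than acetyl groups. It had 2.34, 1.06, 2.18, 2.01 and 5.53 FPKM with control antibody plus GSK343 and 7.07, 3.68, 3.12 and 5.19 FPKM with control antibody. Of the treated libraries 4 of 5 were below the lowest control, and replicate 5 lay within the control range. The difference was -0.73 ± 0.33 (95% interval -1.42 to -0.04, unadjusted p = 0.0391, limma adjusted p = 0.232). With the anti-CXCL10 antibody Hdac11 had 2.44, 3.04, 2.65, 4.36 and 1.58 FPKM with GSK343 and 3.07, 8.13, 3.73, 3.12 and 8.44 FPKM without it. Again 4 of 5 treated libraries were below the lowest untreated one, and the groups overlapped. The difference was -0.66 ± 0.31 (95% interval -1.31 to -0.01, unadjusted p = 0.0471, limma adjusted p = 1). Averaged over the antibodies it was -0.69 ± 0.23 (95% interval -1.17 to -0.22, unadjusted p = 0.00646, limma adjusted p = 0.175). The Hdac11 difference was below 0 in all 28 other settings under each antibody and passed in 0 of them, the lowest adjusted p being 0.0841 without replicate 5 of control antibody plus GSK343. The skeletal muscle scores of the 5 libraries with control antibody plus GSK343, in the order of their Hdac11 values above, were 1.79, 2.39, 4.65, 6.61 and 4.49. With the muscle score as a covariate the Hdac11 difference under control antibody was -0.62 (adjusted p = 0.636), and without the 3 libraries highest in muscle markers it was -1.09 (adjusted p = 0.223).

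Hdac6 had differences of opposite sign under the antibodies, neither past the threshold. This enzyme deacetylates tubulin, cortactin and HSP90. Hdac6 (GRCm38 chromosome X, 7930120 to 7947889, minus strand) had 22.8, 12.6, 13.8, 18.8 and 15.6 FPKM with control antibody plus GSK343 and 17.8, 24.1, 17.5 and 22.0 FPKM with control antibody. Treated replicates 1 and 4 were inside the control range, and 3 of 5 treated libraries were below the lowest control. The difference was -0.28 ± 0.14 (95% interval -0.58 to 0.02, limma adjusted p = 0.299). With the anti-CXCL10 antibody it had 20, 19.2, 19.3, 19.3 and 18.8 FPKM with GSK343 and 19.2, 18.1, 13.9, 14 and 15.3 FPKM without it. Of the treated libraries 4 of 5 were above the highest untreated one, and all 5 lay within a narrow range. The difference was 0.26 ± 0.14 (95% interval -0.02 to 0.54, limma adjusted p = 1).

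The difference between the GSK343 effects was tested as an interaction, and 0 members and 0.0626% of tested genes passed. Hdac6 had the largest value among the members, 0.54 ± 0.20 (95% interval 0.13 to 0.96, unadjusted p = 0.0125, limma adjusted p = 0.229); 12.9% of tested genes had an unadjusted p under 0.05. Without replicate 1 of control antibody plus GSK343, Hdac6 passed, at 0.66 (adjusted p = 0.0433), and the number of all genes that passed was 476 against 9. For Hdac10 the interaction was -0.22 ± 0.23 (adjusted p = 0.762) and for Hdac11 0.07 ± 0.45 (adjusted p = 0.971).

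**Figure D3:**
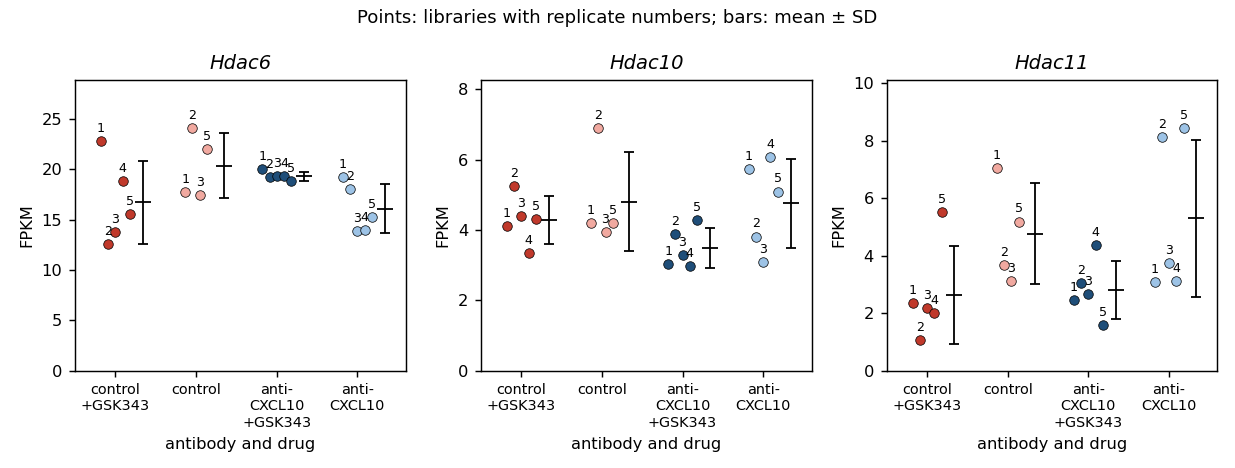
FPKM of Hdac6, Hdac10 and Hdac11 in each library, with replicate numbers beside the points and the mean ± SD of each group to the right of it. Of the treated Hdac11 libraries 4 of 5 lie below the lowest untreated library under each antibody, and the Hdac10 value of replicate 2 of control antibody, 6.89 FPKM, stands above the other 3 of its group.

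Hdac10, a deacetylase of acetylated spermidine and thereby an enzyme of polyamine metabolism, was among the low members. Hdac10 (ENSMUSG00000062906, GRCm38 chromosome 15, 89123307 to 89128700, minus strand) had 4.11, 5.24, 4.39, 3.35 and 4.31 FPKM with control antibody plus GSK343 and 4.19, 6.89, 3.93 and 4.2 FPKM with control antibody. The groups overlapped, with replicate 2 of control antibody above all others. Without that library the difference was 0.04 (adjusted p = 0.948), against -0.12 ± 0.17 with it (95% interval -0.48 to 0.24, limma adjusted p = 0.779). With the anti-CXCL10 antibody Hdac10 had 3.03, 3.87, 3.29, 2.96 and 4.29 FPKM with GSK343 and 5.73, 3.81, 3.09, 6.06 and 5.09 FPKM without it. All 5 treated libraries lay below the untreated mean, and 2 lay below the lowest untreated library. The difference was -0.34 ± 0.16 (95% interval -0.68 to -0.00, unadjusted p = 0.0486, limma adjusted p = 1).

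Hdac10 sits in a tight row of genes on the minus strand. Tubgcp6, which encodes a subunit of the microtubule-nucleating gamma-tubulin complex, begins 219 bases beyond its 3′ end in the deposited coordinates, and the kinase gene Mapk12 ends 1884 bases before its start. Both were named after their values were seen. In replicate 2 of control antibody, where Hdac10 was highest, Tubgcp6 also had its highest value, 12.7 FPKM, against 6.07, 5.52 and 5.65 FPKM in the other control antibody libraries. Mapk12 had 1.52 FPKM in that library and 0.652, 1.15 and 1.06 FPKM in the others. Over all 19 libraries the deviations from the group means correlated with those of Hdac10 at r = 0.475 for Tubgcp6 and 0.089 for Mapk12, given as a description of genes that share their libraries. Tubgcp6 itself did not differ with GSK343 beyond its error under control antibody (0.04 ± 0.20, limma adjusted p = 0.959). Whether fragments of these neighbours were shared was not tested.

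**Figure D4:**
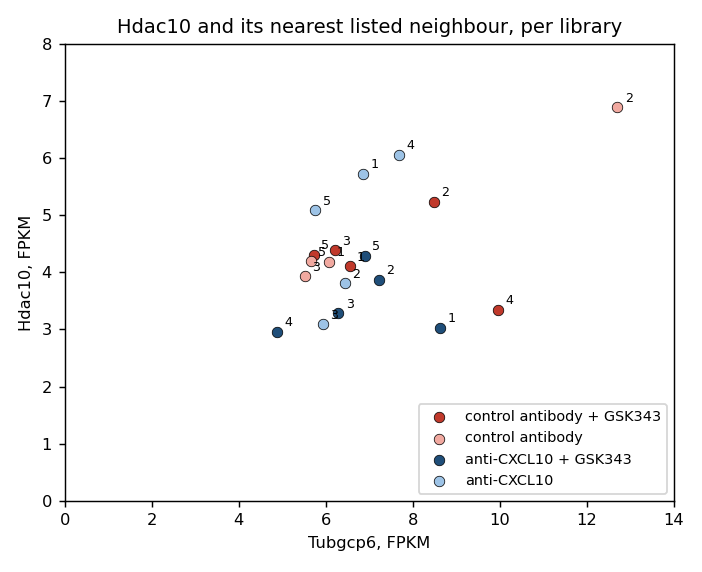
Hdac10 (vertical axis, FPKM) against Tubgcp6 (horizontal axis, FPKM), 1 point per library, with replicate numbers beside the points. Replicate 2 of control antibody is highest on both axes, at 6.89 and 12.7 FPKM.

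By the residuals from the group means over the 19 libraries, the 5 genes closest to Hdac10 were Sfi1 (Pearson r = 0.708, Spearman rho = 0.656), Fuca1 (0.688 and 0.628), Pctp (0.671 and 0.604), Nosip (0.659 and 0.667) and Tbl3 (0.649 and 0.637). They were picked for these values from all tested genes with a mean of at least 5 FPKM, so no test applies. Sfi1 encodes a centrosomal protein, Fuca1 the lysosomal fucosidase and Pctp a phosphatidylcholine transfer protein.

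For the antibody comparisons, which share their libraries with those above, 0 members passed. Without GSK343, anti-CXCL10 against control antibody passed for 0.0139% of tested genes, and members ranged from -0.32 (Hdac6) to 0.27 (Hdac3). Hdac3 had 25.0, 42.0, 42.3, 27.1 and 23.2 FPKM with anti-CXCL10 and 31.0, 21.6, 21.3 and 29.0 FPKM with control antibody. The anti-CXCL10 libraries 2 and 3 were the highest of all, the other 3 lay inside the control range, and the difference was 0.27 ± 0.17 (limma adjusted p = 0.765). Hdac6 was the single member with an unadjusted p under 0.05 (0.0391, limma adjusted p = 0.7), against 6.81% of tested genes. With GSK343 present, 10.1% of tested genes passed and 0 members did, nor did a member have an unadjusted p under 0.05, against 25.7% of tested genes. The members lay between -0.23 for Hdac10 and 0.23 for Hdac6, and all 10 intervals lay within 1 log2 unit. In these comparisons no member had groups without overlap, against 2.53% of tested genes without GSK343 and 8.77% with it. Of the 20 genes beside the members, 0 passed without GSK343, against 0.0139%. With GSK343, 5 passed, against 10.1%: Marcksl1 (-0.85), Lck (-1.02), Marcks (-0.54), Glod5 (0.98) and Fbln2 (-1.19). All 5 were named after their values were seen. With the muscle score as a covariate the calls of Lck (-0.94, limma adjusted p = 0.0686) and Fbln2 (-0.94, 0.0921) were lost. So were those of Marcksl1 (-0.53, 0.117) and Glod5 (0.62, 0.294). Without the 3 libraries highest in muscle markers the same calls were lost, at adjusted p = 0.0625 (Lck), 0.106 (Fbln2), 0.123 (Marcksl1) and 0.232 (Glod5). Glod5 also lost its call in 5 of the 19 fits that left out 1 library.

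Levels of the members were also set against the 7 marker scores, as deviations from the group means over the 19 libraries. Of the 70 relations 0 passed after adjustment, in a permutation test within groups (smallest adjusted p = 0.721). The smallest unadjusted p was that of a lower Hdac7 with a higher keratinocyte score (r = -0.625, p = 0.0173; rho = -0.554, p = 0.0275; r = -0.628 without the 2 libraries farthest from the median score). Hdac2 was lower where the T cell score was higher (r = -0.632, p = 0.0206, and rho = -0.493, p = 0.0686). Without the 2 farthest libraries r was -0.353, so part of this relation rests on them. Hdac2 was also lower where the endothelial score was higher (r = -0.466, permutation p = 0.0383, and -0.543 without the 2 farthest). For Hdac11 and the muscle score r was -0.116 (permutation p = 0.711; rho = -0.098, p = 0.732; -0.105 without the 2 farthest), and for Hdac10 it was -0.190 (permutation p = 0.462; rho = -0.158, p = 0.565; -0.099).

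Few partners of the deacetylases passed the test. The lists named by role held 138 genes, of which 132 were tested. Under control antibody GSK343 passed for 1 gene higher and 1 lower, or 1.52% of them, against 5.47% of all genes (4.36% higher and 1.11% lower). The complexes that carry class I enzymes had 0 genes past the threshold: 15 tested Sin3 genes (median difference -0.06), 12 NuRD genes (-0.10), 9 CoREST and MiDAC genes (-0.14) and 5 genes of the NCoR complex (-0.08). The 7 sirtuins, the NAD-dependent deacetylases (-0.08), 14 acetyltransferases (-0.08), 12 bromodomain readers (0.01), 20 class IIa partners (-0.03) and 14 genes tied to Hdac6 (-0.08) also had 0. For all tested genes the median was -0.03.

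Among 14 tested polyamine genes (median 0.06), Paox, the oxidase of acetylated polyamines, rose with GSK343 under control antibody. Paox had 3.38, 4.93, 3.69, 4.27 and 4.42 FPKM with control antibody plus GSK343 and 1.85, 3.24, 3.30 and 1.43 FPKM with control antibody. All 5 treated libraries were above the highest control, and the difference was 0.61 ± 0.15 (limma adjusted p = 0.0231). Of the fits that left out 1 library, those without control antibody replicates 1 (adjusted p = 0.1) and 5 (0.089) and without treated replicate 2 (0.0613) lost the call. It was also lost in a fit of the compared groups alone (0.13) and with the muscle score as a covariate (0.185), with the difference at 0.61 in both. Leaving out the 3 libraries highest in muscle markers ended the call too (0.60, adjusted p = 0.205). Sat1, the acetyltransferase that supplies Paox with its substrates, had 0.35 ± 0.15 (adjusted p = 0.22), and arginase Arg1 had 1.17 ± 0.44 (adjusted p = 0.149). With the anti-CXCL10 antibody Paox had 0.10 ± 0.14 for GSK343 (limma adjusted p = 1). Paox was lower with anti-CXCL10 plus GSK343 than with control antibody plus GSK343 (-0.53 ± 0.14, limma adjusted p = 0.0235), a comparison that shares the treated control antibody libraries.

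Of 12 genes of cohesin and its regulators, the complex whose SMC3 subunit Hdac8 deacetylates (median -0.09), Pds5b, a cohesin-binding regulator, fell. It had 14.4, 21.1, 14.9, 16.8 and 15.4 FPKM with control antibody plus GSK343 and 20.4, 27.5, 21.1 and 28.1 FPKM with control antibody. Only treated replicate 2 reached into the control range, and the difference was -0.53 ± 0.15 (limma adjusted p = 0.0469), close to the threshold. The call was lost in 13 of the 19 fits that left out 1 library (highest adjusted p = 0.157), namely without control antibody replicate 1, 2 or 5, any treated replicate but 2, anti-CXCL10 replicate 1, 3 or 5, or anti-CXCL10 plus GSK343 replicate 1, 2 or 3. It was also lost in the fit of the compared groups alone (-0.53, adjusted p = 0.0867), with the muscle score as a covariate (-0.41, adjusted p = 0.385) and without the 3 libraries highest in muscle markers (-0.44, adjusted p = 0.36).

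With GSK343 present, 3 of the 132 list genes were higher and 4 lower with anti-CXCL10 than with control antibody, or 5.30% against 10.1% of all genes (3.48% higher and 6.64% lower). Cell type scores also differed between these groups. Macrophage scores were 4.74 to 5.01 with anti-CXCL10 plus GSK343 and 5.32 to 5.63 with control antibody plus GSK343, and hepatocyte and hepatoma scores were 5.21 to 6.07 with anti-CXCL10 plus GSK343 and 4.45 to 5.19 with control antibody plus GSK343, without overlap (exact permutation p = 0.00794 each, adjusted p = 0.111). The T cell difference was -0.80 (exact permutation p = 0.0238, adjusted p = 0.111). Their part in the calls was not tested. The NuRD helicase gene Chd4 (0.40 ± 0.10, limma adjusted p = 0.0145), the cohesin loader gene Mau2 (0.74 ± 0.19, adjusted p = 0.0189) and the cortactin gene Cttn (0.44 ± 0.10, adjusted p = 0.00935) were higher. Besides Paox, peroxiredoxin Prdx1 (-0.93 ± 0.24, adjusted p = 0.0226), the bromodomain gene Brd9 (-0.27 ± 0.07, adjusted p = 0.0173) and the transcription factor gene Mef2c (-0.61 ± 0.14, adjusted p = 0.0141) were lower. Chd4, Mau2, Cttn and Prdx1 were named after their values were seen. With the muscle score as a covariate all 7 calls were lost, at adjusted p from 0.0641 (Cttn) to 0.218 (Mef2c). The difference of Mef2c was then -0.31, whereas those of the other 6 stayed about as large: 0.40 for Chd4, 0.73 for Mau2, 0.47 for Cttn, -0.89 for Prdx1, -0.31 for Brd9 and -0.53 for Paox. Leaving out 1 library ended the call of Paox (without control antibody plus GSK343 replicate 2, adjusted p = 0.0619, or 5, 0.05, or anti-CXCL10 plus GSK343 replicate 1, 0.0571). It also ended that of Prdx1 (without control antibody plus GSK343 replicate 5, 0.0566, or anti-CXCL10 plus GSK343 replicate 1, 0.0533, or 3, 0.0518) and Mau2 (without anti-CXCL10 plus GSK343 replicate 1, 0.0509, or 5, 0.0544). The fit of the compared groups alone ended the calls of Brd9 (0.0527), Mef2c (0.063) and Mau2 (0.0666). Without the 3 libraries highest in muscle markers, the calls of Brd9 (0.0793), Mef2c (0.154), Paox (0.144) and Prdx1 (0.137) were lost. In the remaining 4 comparisons 0 list genes passed.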

How the data were processed

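The authors deposited 1 table of FPKM values per gene for 19 libraries of 20 labelled samples. The unit was inferred from the values: length-weighted column sums varied by 0.79% (coefficient of variation) and plain sums by 4.06%. The tools named are StringTie 1.3.3b, HTSeq 0.6.0, HISAT2 2.1.0, TopHat2 2.1.0 and Trimmomatic 0.33, with builds GRCm38 and mm10, per the submitters' processing notes; the role of each and the strand setting are not given in the sources used here. Read counts were not among the values used here, so the depth is unknown and intervals cover only the spread between libraries. FPKM summed to 533606 to 629679 per library, and replicates of a group correlated at 0.942 to 0.977.

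The 14646 deposited rows were summed by gene ID to 14633 genes, and 14385 of them, those reaching 1 FPKM in 5 libraries, were tested as log2(FPKM + 1), which understates changes of low genes. limma 3.58.1 (R 4.3.3, trend and robust moderation) was fitted to the 4 group means of all 19 libraries, giving 6 comparisons; the test was checked on simulated data. Permutation tests used scipy 1.17.1, with 100000 permutations for correlations.

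The members, gene lists and tests were chosen with earlier results of these data known. Genes named are the members, the 3 genes of each list with the smallest p under control antibody where their values bear on a result, the 5 genes most like Hdac10, overlapping genes, and those said to be named after their values were seen. The targets of the agents, Ezh2 and Cxcl10, check no label, since both agents act on proteins. Ezh2 had 25.3 ± 3.17 FPKM with control antibody plus GSK343 and 29.7 ± 3.24 FPKM with control antibody (limma adjusted p = 0.244). The order was opposite under the anti-CXCL10 antibody, with 27.1 ± 2.98 FPKM with GSK343 and 25.0 ± 1.69 FPKM without it. Cxcl10 had 110.0 ± 17.4 FPKM with anti-CXCL10 plus GSK343 and 205.0 ± 66.1 FPKM with control antibody plus GSK343. Without GSK343 the Cxcl10 mean was not lower with anti-CXCL10 (116.0 ± 41.5 FPKM) than with control antibody (96.9 ± 24.5 FPKM). Under control antibody Cxcl10 was higher with GSK343 (1.05 ± 0.27, limma adjusted p = 0.0299). That call was lost in 4 of the 19 fits that left out 1 library. The fit of the compared groups alone (1.05, limma adjusted p = 0.0744) and the muscle score as a covariate (0.77, 0.326) ended it too. So did leaving out the 3 libraries highest in muscle markers (0.99, 0.237). Gene strands are those of the GENCODE annotation of GRCm38.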

Additional observations from a re-analysis of the deposited data

Results flagged for a closer look

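Within groups, 40 sets of library values of the members were searched for a library far from the others by Dixon's test, which chance flags in about 1 in 20 groups, and 4 were found. Hdac10 had 6.89 FPKM in replicate 2 of control antibody, against 3.93 to 4.2 FPKM in the other 3. Hdac11 had 5.53 FPKM in replicate 5 of control antibody plus GSK343, against 1.06 to 2.34 FPKM in the other 4. Hdac7 had 16.1 FPKM in replicate 2 of control antibody plus GSK343, against 34.5 to 38.1 FPKM. Hdac5 had 9.77 FPKM in replicate 5 of anti-CXCL10, against 14.2 to 15.6 FPKM.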

How the results depend on the processing

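Over 28 other settings the members gave 1660 values in 6 comparisons: 1659 kept their side of the threshold, 1 passed (Hdac6 in the interaction, 0.66, without replicate 1 of control antibody plus GSK343) and 0 reversed a call. The number of members passing was 0 to 1 in the interaction over the fits that left out 1 library. The counts of all genes passing, against which the members were read, moved far more. Leaving out 1 library gave 299 to 1389 genes for GSK343 under control antibody (787 with all), 0 to 1 under anti-CXCL10 (0), 5 to 556 for the average (135), 0 to 476 for the interaction (9), 0 to 2 for anti-CXCL10 without GSK343 (2) and 837 to 1829 with it (1456). The fit of the compared groups alone gave 233 genes for GSK343 under control antibody and 1 for anti-CXCL10 without GSK343. Chosen after seeing the data, the muscle score as a covariate gave 6 genes for GSK343 under control antibody, 0 for the average, 0 for the interaction and 125 for anti-CXCL10 with GSK343. Without the 3 libraries highest in muscle markers (replicates 3, 4 and 5 of control antibody plus GSK343, which leaves 2), these were 15, 2, 1 and 497, and 0 for anti-CXCL10 without GSK343. The cause of these shifts was not tested. The replicate numbers were not taken as pairs, since no label gives them a shared source and deviations of same-numbered libraries correlated at -0.199 to 0.318. In 21 of 54 comparisons a library matched best with its own number, against 11.4 if the numbers carried nothing, a hint from the data and not from the design. With the replicate block, 57 genes passed for the interaction and 0 for anti-CXCL10 without GSK343. Depth is unknown, and differences of the low members are the least certain.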
